A study of Mus musculus with 6 samples.

Results

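The major urinary proteins of mouse liver were followed on expression arrays after 5 days of trichloroethylene (TCE). All array probes whose gene symbol was Mup followed by a number were taken, and this gave 13 probes for 10 gene symbols among the 55681 non-control probes of the array. Mup4, Mup9 and Mup20 had 2 probes each. Mup2, Mup3, Mup5, Mup6, Mup17, Mup19 and Mup21 had 1 probe each. No measured value entered this choice. The choice of the family was made with earlier results of the same arrays known.

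Livers came from 7-week-old male B6C3F1 mice, a hybrid strain. The control group (3 mice) was given corn oil by mouth for 5 days, and the TCE group (3 mice) was given TCE at 1000 mg/kg body weight for the same time, dissolved in corn oil. Total RNA from each liver was labelled with Cy3 and hybridised to 1 single-colour array. Values are log2 of the scanner's processed intensity after quantile normalization, and ± is the SD over 3 mice.

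Major urinary proteins are small secreted proteins of the lipocalin family, whose barrel-shaped fold holds small hydrophobic molecules. In adult male mice the liver makes them in large amounts, and they pass through the blood into urine, where they carry pheromones. Their genes lie in a cluster of near-identical copies. The pulses of growth hormone secretion of males act through the transcription factor STAT5B and keep many of these genes high, and androgens, thyroid hormone and glucocorticoids also act on them.

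Because the copies are so alike, the letters of the probes were compared with each other. Probes at different places of a transcript can differ for that reason alone, so low identity does not tie a signal to 1 gene. All 13 probes were 60 bases long, and the array annotation placed them on chromosome 4 of mm9 between positions 59969824 and 61808925. All 10 symbols were found in the RefSeq annotation by their gene ID. That annotation listed 22 numbered Mup genes, more than the 10 symbols with a probe, and signal from a copy without a probe of its own cannot be told apart from that of the named gene. No genome or gene model of mm9 was used here, so exon positions and the number of copies matching each probe were not analysed here. Of the 78 pairs of Mup probes, 5 pairs shared at least 40 identical bases at more than 80% identity over their overlap.

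The probes of Mup3 (chr4:61745794-61745853, minus strand) and Mup6 (chr4:60018835-60018894, plus strand) aligned over their whole length, with 51 of 60 bases identical (85.0%). They are shown because both were lower in TCE mouse 1. Capitals mark the 9 bases that differed.
Mup3: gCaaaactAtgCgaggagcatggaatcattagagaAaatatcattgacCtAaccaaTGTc
Mup6: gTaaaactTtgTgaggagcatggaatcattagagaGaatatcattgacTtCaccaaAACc

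The probe of Mup21 (A_55_P2025343, chr4:61808866-61808925, minus strand), the one member past the threshold in TCE mice, was nearest to that of Mup2 (A_55_P2010097, chr4:60149741-60149800, minus strand), at 81.4% identity over 59 aligned positions. In the 30-base window of Mup2 and the matching 27 bases of Mup21 shown here, 3 bases differed and Mup2 had 3 more bases. Capitals mark these bases.
Mup21: gaggcccttccAaaTgCattattgtgc
Mup2: gaggcccttccCaaAgTattaATGttgtgc

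One probe of Mup4 (A_55_P2010093, chr4:59969824-59969883), one of Mup20 (A_55_P2063654, chr4:61711407-61711466) and that of Mup19 (A_55_P1974080, chr4:61439496-61439555) formed a set of related probes, all on the minus strand. Identity was 86.5% between Mup4 and Mup20, 82.0% between Mup19 and Mup20 and 81.1% between Mup19 and Mup4. They are shown because their values in TCE mouse 2 went apart. Capitals mark the 3 positions of the 30-base windows at which they were not all alike.
Mup4: ttctgtgatctgcTttccatcCtgtctCac
Mup20: ttctgtgatctgcTttccatcGtgtctTac
Mup19: ttctgtgatctgcAttccatcCtgtctCac

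The probes of Mup9 lay at different places of the gene, and they are shown because the mean differences at them did not match. The first line is the whole probe A_55_P1979904 (chr4:60432618-60432677) and the second the first 30 bases of A_52_P402127 (chr4:60432060-60432119), both on the minus strand.
Mup9 probe A_55_P1979904: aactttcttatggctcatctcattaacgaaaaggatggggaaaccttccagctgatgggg
Mup9 probe A_52_P402127: gaaacaaacctagttggctaccagtcattt

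The array annotation carried 24239 gene symbols in all. All 13 Mup probes were detected, that is, each array of the control group or each of the TCE group called them well above background, and no Mup spot was saturated. The threshold for a change was at least 2-fold with a Benjamini-Hochberg adjusted p of at most 0.05 in limma, fitted over all 22731 detected probes. In TCE mice, 1 of the 13 Mup probes was lower past the threshold (Mup21) and 0 were higher. Among all detected probes, 0.383% were lower and 1.03% were higher past the threshold. The median log2 fold change of the Mup probes was −0.55, beside 0.02 for all detected probes. Rounded to 2 decimals, 11 of the 13 changes were below 0, and the share of all detected probes below 0 was not worked out. Among the 11, the Mup4 probe A_55_P2007816 was detected only through the control group, where its mean was higher. With detection on all 6 arrays required, that probe dropped out and the Mup median was −0.53. Without adjustment, 3 Mup probes had a limma p under 0.05 (Mup21, Mup6 and 1 of Mup9), each with a lower mean in TCE mice, and none had a higher one. The share of all detected probes with such a p was not worked out, so this count has no background beside it. The same holds for the unadjusted counts of the gene lists and cell markers below. Counts of genes with a lower or higher mean in those lists have no background beside them either. In bulk liver RNA, fewer cells of a type and less RNA per cell cannot be told apart. The labels name separate replicates of each group. The limma p-values weigh a mean difference against the spread between these 3 mice per group, moderated by that of all detected probes.

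Mup21, whose probe lay last along the cluster, was the one member that fell past the threshold. Its log2 signal was 17.23, 17.44 and 17.45 in control mice 1, 2 and 3 and 15.99, 16.14 and 16.11 in TCE mice 1, 2 and 3. All TCE mice were below all control mice, and the gap was far wider than the spread in either group. Mup21 fell 2.45-fold (17.37 ± 0.12 against 16.08 ± 0.08, n = 3 each; log2 fold change −1.29, SE 0.12, 95% interval −1.58 to −1.01, limma adjusted p = 0.00734). The scanner's processed intensities before normalization, 163825, 179299 and 161105 in control and 71648, 64359 and 86787 in TCE mice, were separated in the same way. An exact permutation test of 3 against 3 mice gave p = 0.1, two-sided, the smallest value this design allows. With the replicate numbers as a block, a fit for pairs that the labels do not state, the change was −1.29 with a limma adjusted p of 0.0677. Control mouse 1 was on a slide of its own, and within the slide that held the other 5 mice the change of Mup21 was −1.37 with a limma adjusted p of 0.0245.

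Mup9 gave different values with its 2 probes. At A_52_P402127 the log2 signal was 13.03, 13.39 and 13.36 in controls and 12.07, 12.19 and 12.61 in TCE mice. The groups did not overlap there, and the change was −0.97 (SE 0.19, 95% interval −1.42 to −0.52), below the fold needed and with a limma adjusted p of 0.0638. At A_55_P1979904 the signal was 18.59, 18.41 and 18.72 in controls and 18.78, 18.78 and 18.51 in TCE mice. These groups overlapped, and the change was 0.12 (SE 0.14, 95% interval −0.22 to 0.46, limma adjusted p = 0.707). The intervals of the pair did not overlap, and the difference between the probes was not tested.

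Mup3 and Mup6, whose probes shared most of their letters, were both lowest in TCE mouse 1, with different sizes of difference. The log2 signal of Mup3 was 17.34, 17.56 and 17.51 in controls and 16.23, 17.18 and 17.17 in TCE mice, and that of Mup6 was 12.08, 13.08 and 12.98 in controls and 9.72, 11.33 and 12.10 in TCE mice. The groups did not overlap for Mup3 and overlapped for Mup6, where TCE mouse 3 was above control mouse 1. The change was −0.61 for Mup3 (SE 0.27, limma adjusted p = 0.312) and −1.66 for Mup6 (SE 0.62, limma adjusted p = 0.239). Without TCE mouse 1 these were −0.29 and −1.0. Over the 6 mice the correlation of Mup3 and Mup6 was 0.96, and after removal of the group means it was 0.93. These probes share both the arrays and most of their sequence.

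The low value of TCE mouse 1 was seen at other members as well. The signal of Mup2 was 18.09, 18.51 and 18.55 in controls and 16.99, 18.41 and 18.09 in TCE mice. The signal of Mup20 at A_55_P2051486 was 17.04, 17.53 and 17.57 in controls and 16.07, 17.33 and 17.51 in TCE mice. Mup20 encodes darcin, the urinary protein that draws females to male scent. TCE mouse 1 was more than 1 log2 unit below the next lowest TCE mouse at Mup2 and at this Mup20 probe, and the other TCE mice lay at or within the range of the controls. The changes were −0.55 (SE 0.37) for Mup2 and −0.41 (SE 0.40) for Mup20, with limma adjusted p of 0.493 and 0.629. Without TCE mouse 1 they were −0.13 and 0.04. In all, 8 of the 13 Mup probes had their lowest value of the 6 mice in TCE mouse 1, 2 in TCE mouse 2, 2 in control mouse 2 and 1 in control mouse 1. Without TCE mouse 1 the median change of the 13 probes was −0.21.

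TCE mouse 2 stood apart at a different pair of probes. At the second Mup20 probe, A_55_P2063654, the signal was 18.35, 18.37 and 18.39 in controls and 18.30, 16.08 and 18.43 in TCE mice. At the first Mup4 probe, A_55_P2007816, it was 6.56, 8.64 and 9.11 in controls and 7.42, 3.16 and 7.79 in TCE mice. TCE mouse 2 was the lowest of all mice at both, and for Mup4 its spot was not well above background, so that value is only a bound on a low level. The changes were −0.76 (SE 0.61, limma adjusted p = 0.567) for this Mup20 probe and −1.98 (SE 1.33, 95% interval −5.19 to 1.23, limma adjusted p = 0.491) for this Mup4 probe. Without TCE mouse 2 they were 0.00 and −0.49. A single mouse thus set the size of both changes. Each Mup probe was printed once per array, so an error of 1 spot could not be told apart from a difference of 1 mouse.

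**Figure D1:**
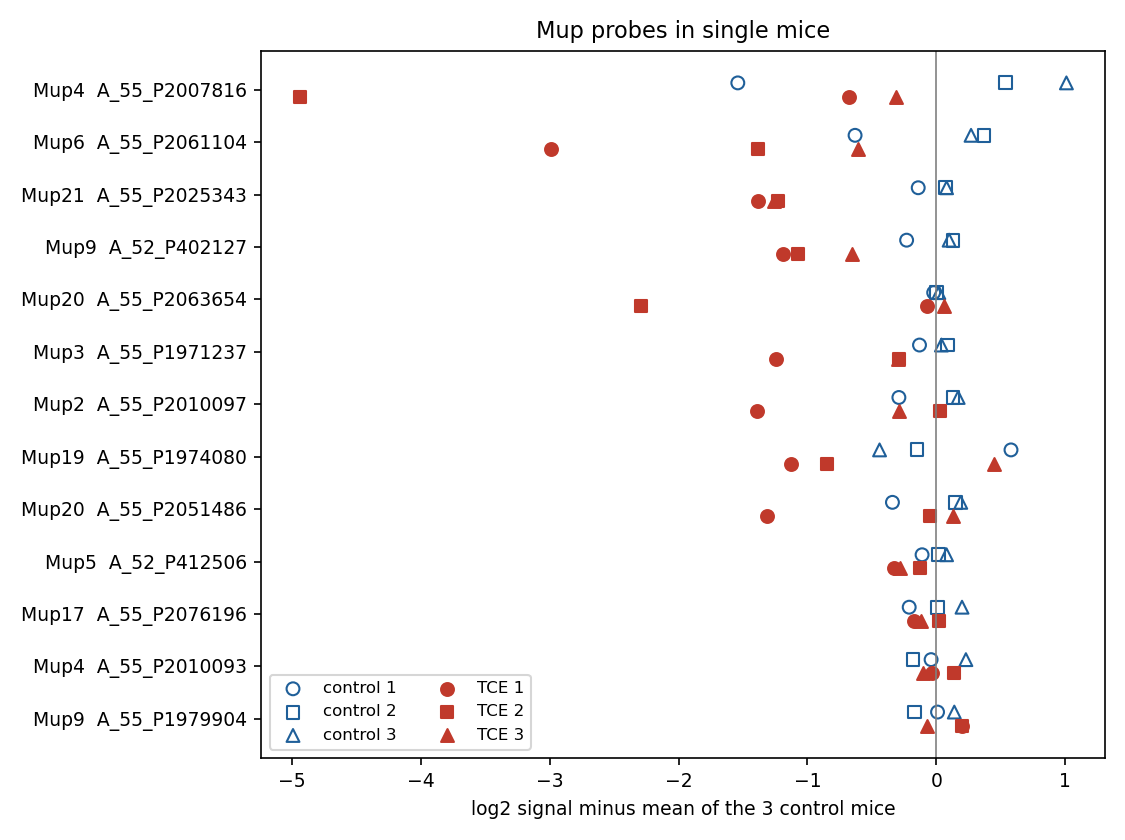
Log2 signal of each of the 13 Mup probes in single mice, as the difference from the mean of the 3 control mice (x axis, log2 units; one row per probe, ordered by mean change). Open symbols are control mice, filled symbols TCE mice, and the shape gives the mouse number: the 3 TCE mice lay together below the controls at Mup21, while at Mup2, Mup3 and Mup20 (A_55_P2051486) TCE mouse 1, and at Mup20 (A_55_P2063654) TCE mouse 2, lay apart.

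The remaining members had mean differences under 2-fold, with log2 fold changes of −0.51, −0.25, −0.09 and 0.00 at Mup19, Mup5, Mup17 and the second Mup4 probe. For Mup19 control mice had 18.63, 17.90 and 17.61 and TCE mice 16.92, 17.20 and 18.50, so TCE mouse 3 was above control mice 2 and 3 (SE 0.46, limma adjusted p = 0.614). The Mup19 change was −0.19 without TCE mouse 1, −0.34 without TCE mouse 2, −0.99 without TCE mouse 3 and −0.22 without control mouse 1. Mup5, which had values of 18.00, 18.13 and 18.19 in controls and 17.78, 17.98 and 17.83 in TCE mice, had groups that did not overlap (SE 0.12, 95% interval −0.53 to 0.04, limma adjusted p = 0.346). The Mup17 signal in control mice was 17.37, 17.59 and 17.78, and TCE mice had 17.41, 17.60 and 17.46. Its 95% interval, −0.43 to 0.26, did not reach a 2-fold change in either direction. For Mup4 at A_55_P2010093 control mice had 17.56, 17.42 and 17.83 and TCE mice 17.57, 17.74 and 17.50, with an interval of −0.36 to 0.35. This Mup4 probe and the Mup20 probe A_55_P2063654, at 86.5% identity, had a correlation of −0.43 over the 6 mice.

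At 4 of the 13 Mup probes (Mup21, Mup3, Mup5 and Mup9 at A_52_P402127) all TCE mice were below all control mice, and at 0 probes were all above. Of all detected probes, 10.2% had all TCE mice below all control mice. The median SD of the Mup probes was 0.20 in controls and 0.54 in TCE mice, and the medians over all detected probes were 0.165 and 0.206. The SD was larger in TCE mice at 9 of the 13 Mup probes, beside 58.5% of all detected probes.

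**Figure D2:**
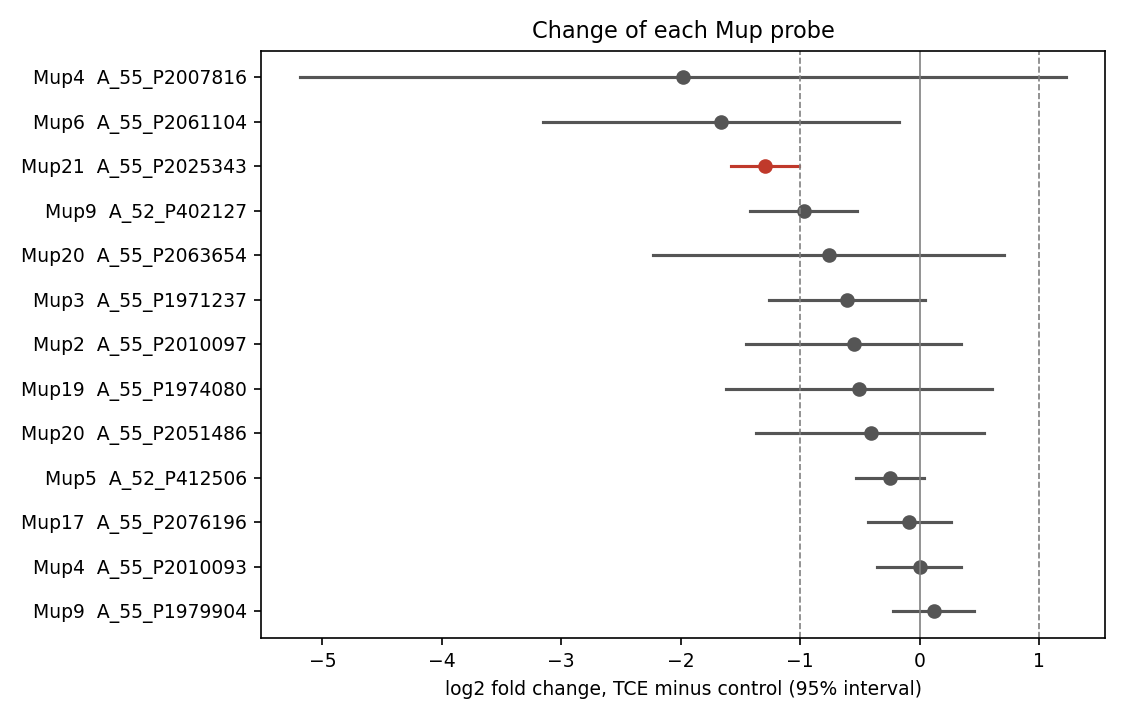
Log2 fold change (TCE minus control, x axis) of each of the 13 Mup probes with its 95% interval from limma, n = 3 mice per group. The dashed lines mark a 2-fold change, and only the probe of Mup21, drawn in red at −1.29, was past both the fold and the adjusted p, with an interval of −1.58 to −1.01.

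The promoters were set side by side for the members that have one in the RefSeq set, which holds 8 of the 10 symbols (GRCm38.p6). Upstream of the start, the promoters of Mup2, Mup9, Mup17 and Mup19 were 96.0% to 98.4% identical to each other and 72.3% to 73.1% identical to that of Mup21. The promoter of Mup3 was 92.7% identical to that of Mup21. Those of Mup4 and Mup6 were 83.0% identical to that of Mup21 and 91.6% to each other. The 250 bases before the start are shown for Mup21, past the threshold, and Mup17, the member with 1 probe and the smallest change. Capitals mark TATATAA, the form of the TATA box found in them. It began at −8 from the annotated start in Mup21 and at −25 in Mup17, so these windows are offset from each other.
Mup21 promoter, chr4:62150842-62151091, minus strand: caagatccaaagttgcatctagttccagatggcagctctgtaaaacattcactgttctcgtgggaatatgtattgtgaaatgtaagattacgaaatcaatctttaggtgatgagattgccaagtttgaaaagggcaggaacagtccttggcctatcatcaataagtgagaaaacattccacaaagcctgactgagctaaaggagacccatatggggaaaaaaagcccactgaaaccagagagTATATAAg
Mup17 promoter, chr4:61595833-61596082, minus strand: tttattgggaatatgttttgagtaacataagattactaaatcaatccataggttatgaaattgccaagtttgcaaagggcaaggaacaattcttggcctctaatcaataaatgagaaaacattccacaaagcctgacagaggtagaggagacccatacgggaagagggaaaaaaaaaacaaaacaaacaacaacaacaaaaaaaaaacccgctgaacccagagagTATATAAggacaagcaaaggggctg

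TATATAA, searched after the sequences had been seen, was present on either strand in 13 of the 14 promoters of numbered Mup genes, all but that of Mup7, among them all 8 of the members, and in 3.24% of the 32851 RefSeq promoters of 300 bases. These 300 bases run past the annotated start. In Mup11 and Mup14 TATATAA was not in the 250 bases before it. A STAT5 motif, TTCNNNGAA, was in 0 of the 14 promoters of numbered Mup genes and in 8.3% of all promoters. The palindromic consensus of the glucocorticoid receptor and the direct repeat of nuclear receptors with a spacer of 1 base were in 0 of the 14 and in 0.01% and 0.04% of all promoters. All 4 motifs were searched on both strands, and a motif that reads the same or overlaps on both was counted once per promoter. These letters not being in this window says nothing of sites elsewhere.

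Among the genes that carry growth hormone action to the male liver, 2 of 18 detected regulators fell past the threshold and 0 rose. Beside this, 0.429% of the 13286 detected genes were lower and 1.3% higher past the threshold. Igfals, the subunit that keeps IGF1 in circulation, had a log2 signal of 11.92, 11.80 and 11.56 in control and 10.74, 10.72 and 10.43 in TCE mice. Foxa2, a pioneer transcription factor of hepatocytes, had 12.23, 12.37 and 12.65 in control and 11.45, 11.45 and 11.15 in TCE mice. In both, all TCE mice were below all control mice. The log2 fold changes were −1.13 (SE 0.15, limma adjusted p = 0.0251) for Igfals and −1.07 (SE 0.16, limma adjusted p = 0.0319) for Foxa2. Both calls were lost in each of the 6 fits that left out 1 mouse, with limma adjusted p of up to 0.118 and 0.128, and within the slide of both groups 0 of the regulators were past the threshold. The median change of the list was −0.44, with 13 genes lower and 5 higher in mean in TCE mice. The share of all detected genes with a lower mean was not worked out. Members with larger fitted differences did not pass, and these and the next are named after their values were seen. Cish, a STAT5 target that restrains growth hormone signalling, had 9.41, 9.60 and 12.01 in control and 8.90, 7.80 and 7.98 in TCE mice, without overlap (log2 fold change −2.11, SE 0.72, limma adjusted p = 0.205). The groups overlapped for Onecut1 (−1.68, SE 0.78, limma adjusted p = 0.330) and Socs2 (−1.57, SE 1.03, limma adjusted p = 0.480). The growth hormone receptor Ghr (−0.46), Igf1 (−0.50) and Stat5b itself (−0.01) were not past the threshold either. Cebpb, also named after its values were seen, went the other way, with all TCE mice above all control mice (log2 fold change 0.98, SE 0.27, limma adjusted p = 0.140).

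Of 15 detected male-biased liver genes outside the family, 4 were lower past the threshold and 0 were higher, with a median of −0.43. With detection on all 6 arrays required, 3 were lower, since Serpina12 was detected only through the control group, where it was high. Serpina12, the serpin known as vaspin, was 6.95, 6.94 and 7.01 in controls. It was not well above background on any TCE array, which puts it at least 4.6-fold lower. Its limma adjusted p of 0.0191 is for the fitted difference, which used those TCE values, and not for this bound. Hsd3b5, a steroid dehydrogenase of male liver, was 15.78, 15.63 and 15.62 in control and 13.15, 14.07 and 14.33 in TCE mice (log2 fold change −1.83, SE 0.30, limma adjusted p = 0.0414). Cyp7b1, an oxysterol hydroxylase of bile acid synthesis, was 15.79, 16.39 and 16.17 in control and 14.26, 14.94 and 14.86 in TCE mice (log2 fold change −1.43, SE 0.24, limma adjusted p = 0.0440). The TCE mice were below the control mice at all of these. Lifr, the receptor of leukemia inhibitory factor, changed by −1.17 (SE 0.17, limma adjusted p = 0.0292), from 14.45, 14.46 and 13.95 to 13.18, 13.08 and 13.08. Over the whole list, 12 genes had a lower and 3 a higher mean in TCE mice, again without a share of all detected genes beside it. Cyp4a12a (0.38, limma adjusted p = 0.1615) and Cyp4a12b (0.33, limma adjusted p = 0.277) had all TCE mice above all control mice. These genes are named after their values were seen. In the fits that left out 1 mouse, 0 to 2 genes of this list were past the threshold, and within the slide of both groups 0 were. All 6 calls of both lists were lost with the replicate block, at limma adjusted p of 0.0653 to 0.147.

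**Figure D3:**
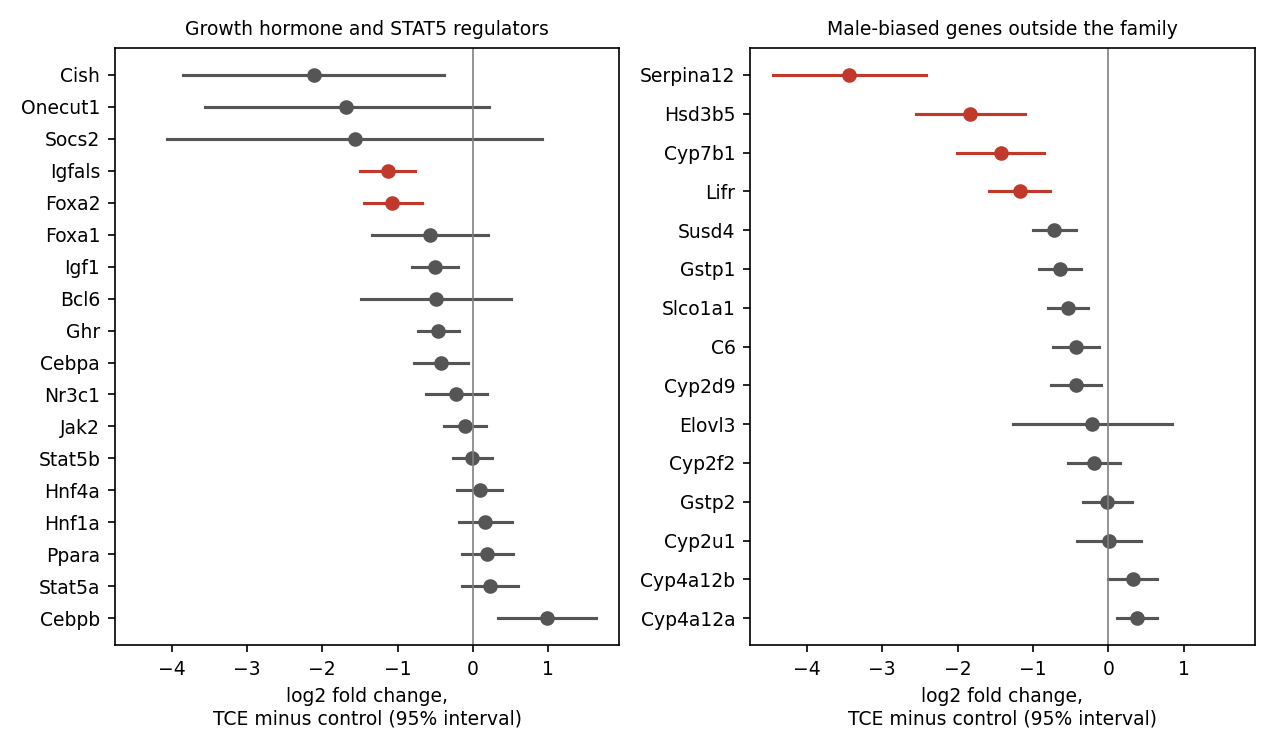
Log2 fold change (TCE minus control, x axis) with its 95% interval from limma for the 18 detected growth hormone and STAT5 regulators (left) and the 15 detected male-biased genes outside the family (right), 1 probe per gene, n = 3 mice per group. Red marks Igfals and Foxa2 on the left and Serpina12, Hsd3b5, Cyp7b1 and Lifr on the right, which were past the threshold; the fitted value of Serpina12 is not a measured fold, because its TCE level was not well above background.

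Of 11 detected female-biased liver genes, 0 were past the threshold (limma; 4 at an unadjusted p under 0.05, and 2 by the methods' t-test without adjustment), with a median of −0.08. Of them 7 had a lower and 4 a higher mean in TCE mice. The 2 largest fitted differences were those of Cyp3a44 and Abcd2, both detected only through the TCE group, where they were high, so their rank is not one of measured folds. Cyp3a44, a cytochrome P450 of female liver, was not well above background on any control array and was at least 2.51-fold higher in TCE mice. Its limma adjusted p of 0.0738 is for the fitted difference and not for this bound. Abcd2, a peroxisomal fatty acid transporter, was 5.25, 4.04 and 3.14 in control mice, with 1 array well above background, and 6.61, 6.82 and 5.36 in TCE mice (limma adjusted p = 0.150). The other 2 of the 4 with an unadjusted p under 0.05, named after their values were seen, were Prom1 (log2 fold change −0.95, limma adjusted p = 0.182) and Atp6v0d2 (−0.94, limma adjusted p = 0.196), with all TCE mice below all control mice and Atp6v0d2 well above background on 1 TCE array. Of 9 detected lipocalins and lipocalin-like carriers outside the family, 0 were past the threshold (limma; 3 at an unadjusted p under 0.05, and 2 by the methods' t-test without adjustment), with a median of 0.19. Lcn2, the acute phase lipocalin that binds bacterial siderophores, was 8.55, 8.88 and 8.29 in control and 13.42, 10.40 and 12.40 in TCE mice, so all TCE mice were higher (log2 fold change 3.50, SE 0.72, limma adjusted p = 0.0752). Orm3, an acute phase orosomucoid, was 6.37, 7.44 and 7.01 in control and 9.03, 7.12 and 10.10 in TCE mice, with overlapping groups (log2 fold change 1.81, SE 0.74, limma adjusted p = 0.272). Ptgds, the remaining 1 of the 3 and named after its values were seen, had all TCE mice below all control mice (log2 fold change −1.04, SE 0.29, limma adjusted p = 0.142). Of this list 3 had a lower and 6 a higher mean in TCE mice.

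Hepatocyte markers, the genes of the cells that make the Mup proteins, did not move with them past the test: 0 of 10 passed (limma; 2 at an unadjusted p under 0.05), their median was 0.04, and the sum of their log2 signals was 176.6 to 177.2 in control and 176.5 to 177.0 in TCE mice. None of the detected markers of other cells passed the threshold either, and their summed log2 signals were 72.3 to 73.7 and 71.7 to 72.5 for 7 macrophage markers, 52.7 to 53.9 and 49.8 to 53.9 for 5 endothelial markers, 30.2 to 33.1 and 27.2 to 30.2 for 4 stellate cell markers, 11.8 to 13.6 and 11.9 to 12.7 for 2 bile duct markers, 19.8 to 20.9 and 19.6 to 21.7 for 3 lymphocyte markers, and 57.2 to 58.9 and 51.5 to 57.7 for 4 erythroid markers, in control and TCE mice in turn. Single markers, named after their values were seen, did differ: Alas2, the heme synthesis enzyme of red cell precursors, was 14.00, 14.13 and 14.07 in controls and 13.13, 13.06 and 13.28 in TCE mice (log2 fold change −0.91, SE 0.12, limma adjusted p = 0.0215), below 2-fold. Lrat, the retinol esterase of stellate cells, had a difference of −1.35 (SE 0.27) without overlap of the groups, at a limma adjusted p of 0.0676. Besides these, an unadjusted limma p under 0.05 was seen for the lymphocyte marker Cd3e (−0.63) and for 0 macrophage, endothelial and bile duct markers. The part of these shifts in the Mup values was not tested.

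Among the 17437 detected probes outside the family that had a gene symbol and a value on all 6 arrays, those most like the mean of the centred Mup values over the 6 mice were of Agpat5 (r = 0.996), an acyltransferase of phospholipid synthesis, Npb (0.994), a neuropeptide, Sult1b1 (0.994), a sulfotransferase, Ear11 (0.991), a ribonuclease of eosinophils and macrophages, and Mansc1 (0.991). Their log2 fold changes lay between −0.74 and −0.29, and none was past the threshold. In TCE mouse 2 the mean of the centred Mup values was −0.57, while their median was −0.01. That mean includes the spot of Mup4 probe A_55_P2007816, which was not well above background there. A match to the median was not worked out. The r values were the highest of many over 6 arrays and are a description only.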

How the data were processed

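Liver RNA of 6 mice was measured on Agilent mouse arrays (60-base probes, single colour). The authors deposited scanner files made with Agilent Feature Extraction 10.7.1.1 (per the labels), whose processed signal is a background-subtracted intensity, and a table of log2 group means, normalized by the authors, which was used only for gene symbols and as a check. Here, control spots were left out, and outlier-flagged spots set aside. Log2 values of the deposited processed signal were averaged over the spots of a probe and then quantile normalized. A probe was detected if every array of either group called it well above background. The resulting group means were within 0.01 of those of the authors for 99.993% of probes. Arrays had 23537 to 24965 probes well above background, and array number limits the precision.

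Groups came from the labels. TCE was compared with control by limma 3.58.1 (R 4.3.3) with Benjamini-Hochberg adjustment over 22731 probes, without a replicate block, after a test on simulated data. For genes, the detected probe with the highest mean was used. Alternatives were 75th percentile scaling, normexp (offset 50), no detection filter or all 6 arrays, outlier spots kept, the replicate block, slide, array weights, robust moderation, the methods' t-test and leaving out each mouse. The members and lists were chosen with earlier results of these data known. Named were all 10 symbols, in each companion list the members past the threshold (up to 4) or else the 2 largest changes, and the 5 probes most like the family mean. Genes the report says were named after their values were seen are outside this rule. RefSeq promoters of GRCm38.p6 were aligned with Biopython 1.88, with end gaps free. Authors' fold changes and p-values were not used.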

Additional observations from a re-analysis of the deposited data

How the results depend on the processing

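The Mup21 decrease was past the threshold in every alternative except the replicate block (−1.29, limma adjusted p = 0.0677), and its change was −1.40 to −1.26 over these and −1.37 to −1.23 with 1 mouse left out (adjusted p 0.025 to 0.04998). With the replicate block, 0 Mup probes, 7 lower and 56 higher of all probes, and 0 genes of the growth hormone and of the male-biased list were past the threshold. Deviations of same-numbered mice had correlations of 0.09, 0.01 and −0.09. Whether these mice were handled in pairs is not in the labels, and such correlations cannot decide it. With array weights 2 Mup probes were lower, the second being Mup9 A_52_P402127 (−1.04, adjusted p = 0.0391), and 1 female-biased gene and 1 lipocalin passed. With 1 mouse left out, 1 Mup probe was lower in all 6 fits, and 0 were higher. The Mup median was −0.74 to −0.53 over the alternatives and −0.77 to −0.21 with 1 mouse left out, the last without TCE mouse 1. Changes near 0 turned sign: Mup9 A_55_P1979904 was −0.11 with the 75th percentile, and Mup4 A_55_P2010093 was 0.03 with normexp and 0.02 with array weights. With 1 mouse left out, Mup4 A_55_P2010093 ranged from −0.10 to 0.10, Mup17 from −0.20 to 0.01 and Mup20 A_55_P2051486 from −0.69 to 0.04. For all probes, lower and higher counts were 87 and 234. They were 18 and 78 without the detection filter, where more probes were tested, 30 and 147 with slide as a block or within its slide, 206 and 388 by the methods' t-test without adjustment, 4 and 31 with it, and 20 to 88 and 105 to 171 with 1 mouse left out. With detection on all 6 arrays, 149 were higher. The growth hormone and male-biased lists each had 0 past the threshold without the filter, with slide as a block, within the slide and by the adjusted t-test, and 0 to 0 and 0 to 2 with 1 mouse left out. Control mouse 1 was alone on its slide, so the slide block and the fit within the slide are the same comparison. The fit without control mouse 1 uses the same mice. The female-biased list had 1 with slide as a block or within it, 2 by the unadjusted t-test and 0 to 1 with 1 mouse left out, and the lipocalins had 2 and 0 to 1 in the last pair. Where a count or call moved, the cause was not tested. Spots that are not well above background, as for Mup4 in TCE mouse 2, hold no measured level.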

Other observations

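Other probes of the same cluster carried names outside the symbol rule. The probe annotated LOC100048884, whose gene ID is now named Mup18 in RefSeq, was 17.41, 17.72 and 17.90 in controls and 17.54, 17.64 and 17.64 in TCE mice (log2 fold change −0.07, SE 0.15, limma adjusted p = 0.844), with overlapping groups. The probe A_55_P2113587, for a non-coding transcript of the cluster, was 14.23, 14.98 and 15.05 in controls and 13.28, 13.39 and 14.62 in TCE mice (log2 fold change −0.99, SE 0.41, limma adjusted p = 0.279). Here TCE mice 1 and 2 were below all control mice and TCE mouse 3 was not. The probe A_55_P1981195 for the same transcript was well above background on 5 of 6 arrays, all but that of TCE mouse 2, and its values were 7.53, 7.87 and 6.63 in controls and 6.07, 3.16 and 7.18 in TCE mice (limma adjusted p = 0.388). The probe A_55_P2046671, with no gene name, was 14.08, 14.35 and 14.14 in controls and 13.77, 13.11 and 13.99 in TCE mice, so the groups did not overlap, with a log2 fold change of −0.57 (SE 0.24, limma adjusted p = 0.289). None of these 4 probes was past the threshold.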
